A study of Mus musculus with 4 samples.

Results

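The antioxidant and redox genes described here encode enzymes that remove superoxide, peroxides and electrophiles in the cell, or that keep thiols reduced. They were chosen by name from a list of 43 genes, and a gene was a member when both deposited tables listed it. This held for 42 genes of the 19968 genes in both tables. The exception was Hgf, which encodes hepatocyte growth factor, a secreted ligand and no redox enzyme. It was listed with 4 counts in one library labelled cKO and 3 counts in the control library, and the other table did not list it.

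Gene expression was measured by RNA sequencing of cerebral cortex from C57BL/6 mouse embryos at embryonic day 15. The genotypes were Prdm16cKO, a conditional deletion of Prdm16, and Prdm16fl/fl, the control that carries the floxed alleles without deletion. All groups shared strain, age and tissue, and neither the Cre line nor the deleted exon is stated in the sources used here. The tables held 2 libraries labelled cKO, called cKO 1 and cKO 2, and 1 library labelled with the control genotype, called floxed. The numbers are names only. Errors can be given for the cKO group alone, as the SD of 2 libraries, and each level for floxed is that of 1 library. Whether these libraries came from separate animals is not stated. The p-values then cover no more than the variation among these samples, which may be technical.

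Cells make superoxide mainly in the mitochondrial respiratory chain. Superoxide dismutases turn it into hydrogen peroxide, which catalase, glutathione peroxidases and peroxiredoxins reduce to water. Glutathione and thioredoxin supply the electrons, and reductases restore both with NADPH. The transcription factor NRF2, encoded by Nfe2l2, raises many of these genes under oxidative stress and is held in check by KEAP1. PRDM16, a zinc-finger transcriptional regulator of neural and blood stem cells, is known to limit oxidative stress in such cells, and Hgf has been described as one of the genes through which it does so.

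The libraries held between 17839662 and 19514882 counts, so that a count of 0 allowed at most 0.154 to 0.168 counts per 1000000 (CPM). Levels are CPM of the library total, and levels compared between genes are CPM per kilobase of annotated exon. Prdm16, the targeted gene, had 34.6 CPM in cKO 1, 24.1 in cKO 2 and 30.2 in floxed, so the level in cKO 1 ran against its label. Deleting some exons leaves reads from the others, so the count checks the labels only in part, and all directions below refer to libraries labelled cKO. Library cKO 2 also stood apart in markers of non-neural cells. Genes of meninges and fibroblasts summed to 83.2 CPM in cKO 2, 1064 CPM in cKO 1 and 677 CPM in floxed, and 18 of 18 were lower in cKO 2 than in floxed. The summed marker levels of neurons lay between 9059 and 9252 CPM in the libraries, and those of radial glia between 2199 and 2951 CPM. In bulk tissue, fewer cells of a type and less RNA per cell cannot be told apart.

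Short promoter windows were searched for response elements of known regulators. Matches are descriptions, not binding sites, and an element outside a window is not seen. The members without a window were Gsr, Prdx6, Hmox1, Sod3, Gsta4, Gclc and Msra. RefSeq promoter windows (GRCm38.p6, 250 bases before to 50 after a start site, RefSeq table) were found for 35 of the 42 members. They were searched on both strands for the core of the antioxidant response element bound by NRF2, TGACNNNGC, and for a form of the carbohydrate response element, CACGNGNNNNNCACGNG. The windows shown belong to Txnip, the member with the smallest p, to Nfe2l2, and to 3 enzymes of the glutathione, peroxiredoxin and thioredoxin systems. Capitals mark the match, and the strand is that of the gene.
Txnip (chr3:96557850-96557910, plus strand): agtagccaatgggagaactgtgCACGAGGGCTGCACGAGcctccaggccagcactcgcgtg
Nfe2l2 (chr2:75704873-75704913, minus strand): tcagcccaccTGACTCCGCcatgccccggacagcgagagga
Prdx1 (chr4:116685444-116685496, plus strand): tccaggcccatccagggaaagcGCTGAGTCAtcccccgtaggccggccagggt
Gclm (chr3:122245401-122245453, plus strand): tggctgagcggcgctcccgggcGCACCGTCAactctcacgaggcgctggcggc
Txnrd1 (chr10:82859092-82859144, plus strand): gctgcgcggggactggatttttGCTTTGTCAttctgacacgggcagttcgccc
The carbohydrate element form was present in 16 of 32851 promoter windows (0.0487%), and Txnip was the only member with it. The antioxidant core was present in 12.4% of all windows and in 10 of the 50 windows of the listed genes, 1 of them of Hgf. The others belong to 9 members. Besides Nfe2l2, Prdx1, Gclm and Txnrd1 these were Gstm5, Mgst1, Msrb2, Sod1 and Srxn1. In Prdx1, Gclm and Txnrd1 the match lies on the opposite strand and reads as its reverse complement. The log2 folds of these 9 members against floxed had a median of 0.07 in cKO 1, with a range from -0.37 to 0.58, and of -0.06 in cKO 2, with a range from -0.53 to 0.32.

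The redox genes were mostly well expressed, and their order of level was led by a peroxiredoxin, a thioredoxin and glutathione peroxidases. The mean level was 10 CPM or more in 37 of 42 members, with a median over members of 47.1 CPM against 19.3 CPM over all genes tested. Per kilobase of exon, Prdx2, a cytosolic peroxiredoxin abundant in neurons and red cells, was highest, with 207 CPM per kilobase in cKO 1, 250.3 in cKO 2 and 209 in floxed. Txn1, the cytosolic thioredoxin, followed with 132, 143 and 125 CPM per kilobase. Gpx4, the selenoenzyme that reduces lipid peroxides and guards against ferroptosis, had 104, 123 and 103 CPM per kilobase. Gpx1, the main cytosolic glutathione peroxidase, and Gstp1, a glutathione S-transferase, had mean levels of 73.2 and 63.4 CPM per kilobase. Gstp1 has near-identical neighbouring copies, and the sources used here do not state how reads with several matches were counted, so its level is uncertain. Nqo1 and Sod3 were lowest, at means of 1.19 and 0.767 CPM per kilobase. Exon length here counts the exons of every annotated transcript, which lowers genes with long rare forms.

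**Figure D1:**
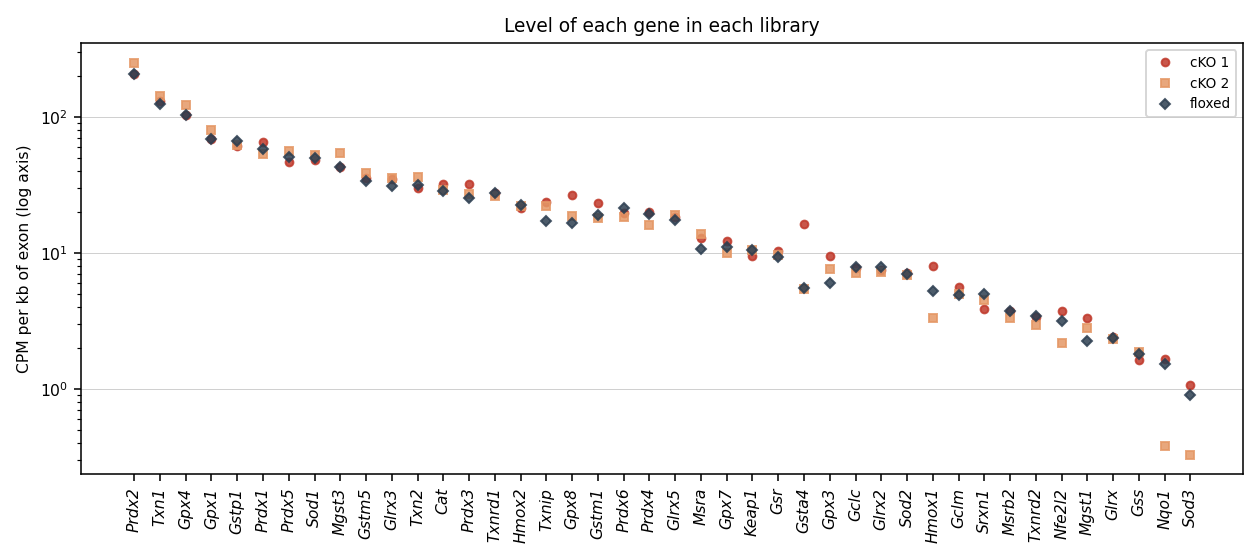
Level of each of the 42 members in CPM per kilobase of annotated exon on a log axis, with 1 point for each library (cKO 1, cKO 2, floxed), ordered by the mean. Prdx2 leads with a mean of 222 CPM per kilobase, the 3 libraries nearly coincide for most members, and Gsta4, Hmox1, Nqo1 and Sod3 show wide gaps.

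No member passed the test of the cKO libraries against floxed. All 42 members passed the expression filter. With edgeR's quasi-likelihood test, 0 of 42 members had an adjusted p under 0.05, against 1 of 16658 genes tested (0.00600%), which was Ptx3, no member. At an unadjusted p under 0.05, 1 member was higher (all genes: 0.666%) and 0 were lower (all genes: 0.864%). DESeq2 called 0 members at an adjusted p and 0 at an unadjusted p. The fit had 1 residual degree of freedom.

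Ratios to the single floxed library were then taken for each cKO library. These ratios share the floxed library, rest on 1 library on each side and carry no test. A gene is called past the fold where its CPM ratio was at most 0.8 or at least the inverse of 0.8, and the exact (Clopper-Pearson) 95% interval of the ratio excluded 1. In cKO 1, 7 members were past the fold as higher and 1 as lower, where 8.06% and 4.78% of all genes tested were. In cKO 2, 4 were higher and 4 lower, where the shares of all genes were 5.61% and 14.0%. Among genes of at least 10 CPM, the shares were 5.78% higher and 3.33% lower in cKO 1 and 4.93% and 8.41% in cKO 2. Of the 37 members at such levels, 5 were higher and 1 lower in cKO 1, beside 4 higher and 1 lower in cKO 2. At these levels 15 members had both cKO libraries above floxed (29.0% of such genes) and 8 had both below (30.7%). With a 1.5-fold threshold, 4 members were higher and 0 lower in cKO 1 (all genes: 3.73% and 2.34%), and 0 were higher and 3 lower in cKO 2 (all genes: 2.37% and 9.66%). The median log2 fold over the members was 0.06 in cKO 1 and 0.01 in cKO 2, beside 0.01 and -0.04 over all genes tested. In 16 of 42 members both cKO libraries lay above floxed, where 27.6% of all genes did, and in 8 both lay below, where 31.9% did. Of the members, 28 of 42 were past the fold neither against floxed nor between the cKO libraries, as was the case for 66.9% of all genes tested.

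**Figure D2:**
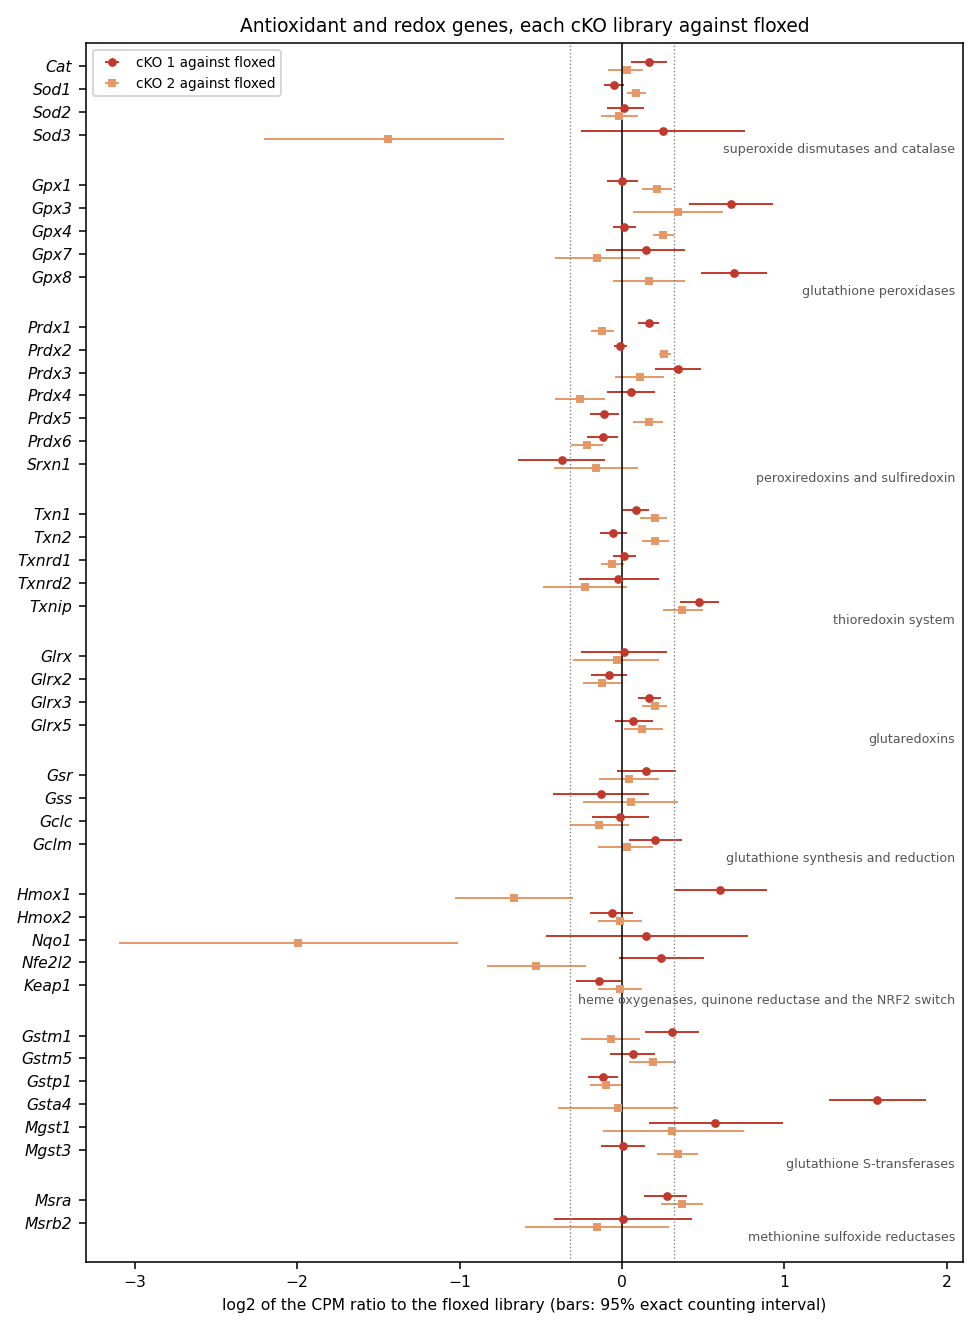
Log2 of the CPM ratio of cKO 1 (circles) and cKO 2 (squares) to the floxed library for the 42 members, grouped by role, with exact 95% counting intervals as bars and dotted lines at the fold threshold. Txnip and Gpx3 lie right of the dotted line in both libraries, Gsta4 in cKO 1 alone at 1.57, and Sod3 and Nqo1 lie far left in cKO 2 at -1.44 and -1.99.

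Txnip and Gpx3 were the members past the fold as higher in both cKO libraries (1.59% of all genes tested, and 1.21% of those of at least 10 CPM), and 0 members were so as lower (2.21% and 1.47%). Txnip encodes a protein that binds and inhibits thioredoxin, limits glucose uptake and is induced by glucose. It had 74.9 CPM in cKO 1, 69.6 in cKO 2 and 53.8 in floxed, so both cKO libraries lay above the floxed level. The ratio to floxed was 1.39 (95% interval 1.28 to 1.51) in cKO 1 and 1.29 (1.19 to 1.41) in cKO 2. Its mean over the cKO libraries was 72.3 ± 3.69 CPM (SD, n = 2). For Txnip edgeR gave a log2 fold of 0.43 (SE 0.15, unadjusted p = 0.0216, adjusted p = 0.9999). An antisense gene, Gm15441, covers 19.4% of the Txnip exon bases. The kit does not mark strand, and Gm15441 was itself counted at 0.564 CPM in cKO 1, 0.915 in cKO 2 and 0.785 in floxed.

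Gpx3 encodes the secreted glutathione peroxidase. Its level was 17.4 CPM in cKO 1, 13.9 in cKO 2 and 10.99 in floxed, in the order cKO 1, cKO 2, floxed. The ratio was 1.59 (95% interval 1.33 to 1.9003) in cKO 1 and 1.27 (1.05 to 1.54) in cKO 2. The edgeR log2 fold was 0.51 (SE 0.28, unadjusted p = 0.109, adjusted p = 0.9999). Radial glia markers, the stem cell genes of the ventricular zone, summed to 2951 CPM in cKO 1, 2843 in cKO 2 and 2199 in floxed. Of 13 tested, 6 were higher past the fold in cKO 1 and 6 in cKO 2 (all genes tested: 8.06% and 5.61%), and 0 were lower. Vim, Fabp7, Sox9 and Hopx were higher in both. Pax6 and Sox2 were past the fold in neither library, with log2 folds of -0.03 and 0.20 in cKO 1. In cKO 2 these were -0.05 and -0.04. The sum was thus higher in the same libraries as Txnip and Gpx3, and the part of radial glia in these values was not tested.

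Superoxide dismutases and catalase differed little, except for the extracellular form. Sod1, the cytosolic enzyme, had 192 CPM in cKO 1, 211 in cKO 2 and 199 in floxed, and Sod2, the mitochondrial enzyme, had 71.4, 69.6 and 70.4 CPM. Cat, the peroxisomal catalase, had 84.7, 76.6 and 75.4 CPM. The cKO libraries lay on both sides of floxed for Sod1 and Sod2. Sod3, the secreted enzyme bound to matrix and vessel walls, was counted 78 times in cKO 1, against 23 in cKO 2 and 60 in floxed. In CPM this was 3.997, 1.24 and 3.36, with ratios to floxed of 1.19 (95% interval 0.838 to 1.69) and 0.368 (0.217 to 0.604). Sod3 was low in cKO 2 alone, and it was marked significant there in the authors' deposited table (log2 fold -1.44).

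Of the glutathione peroxidases, Gpx1 and Gpx4 were slightly higher in cKO 2 alone. Gpx4 had 179.8 CPM in cKO 1, 212 in cKO 2 and 178 in floxed, and its ratio in cKO 2 was 1.19, with a 95% interval wholly above 1 and a ratio short of the fold threshold. Gpx1 had a ratio of 1.16 (1.09 to 1.24) in cKO 2, and in cKO 1 the interval (0.938 to 1.07) held 1. Gpx7 and Gpx8 are peroxidases of the endoplasmic reticulum that take part in oxidative protein folding. Gpx8 had 28.2 CPM in cKO 1, 19.6 in cKO 2 and 17.5 in floxed, with a ratio of 1.61 (1.403 to 1.86) in cKO 1. The interval in cKO 2 (0.963 to 1.31) held 1. Gpx7 had 15.9, 12.9 and 14.4 CPM, with cKO libraries on both sides of floxed.

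Peroxiredoxins use a reactive cysteine to reduce peroxides, and sulfiredoxin repairs that cysteine when it is overoxidised. Prdx2 had 632 CPM in cKO 1, 763 in cKO 2 and 638 in floxed, so it was higher in cKO 2 alone (ratio 1.196, 95% interval 1.17 to 1.23). Red cells are rich in Prdx2, and the erythroid markers listed in both tables (17 genes) summed to 1612 CPM in cKO 1, 1303 in cKO 2 and 1764 in floxed. Of 16 tested, 11 were above and 5 below floxed in cKO 2, and 10 above and 6 below in cKO 1, so the sum and most of the genes ran in opposite directions. Their part in the level of Prdx2 was not tested. Prdx3, the mitochondrial member, had 47.6, 40.4 and 37.5 CPM and was past the fold in cKO 1 (ratio 1.27, 1.15 to 1.403). Srxn1, which encodes sulfiredoxin, was the only member lower past the fold in cKO 1, with 10.97 CPM there, 12.7 in cKO 2 and 14.2 in floxed. Its ratio was 0.773 (0.642 to 0.931) in cKO 1, and in cKO 2 the interval (0.747 to 1.07) held 1. Prdx1 (200.001, 165 and 179 CPM) and Prdx5 (100.3, 121 and 108 CPM) had cKO libraries on both sides of floxed, in opposite order. The antisense gene Trmt112 covers 19.1% of the Prdx5 exon bases, so reads there cannot be told apart. Prdx4 of the endoplasmic reticulum and Prdx6, which uses glutathione, were not past the fold, with log2 folds of 0.05 and -0.12 in cKO 1 and -0.26 and -0.21 in cKO 2.

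Apart from Txnip, none of the thioredoxins, their reductases and the 4 glutaredoxins was past the fold in either library. Txn2, the mitochondrial thioredoxin, had 128 CPM in cKO 1, 153 in cKO 2 and 133 in floxed. Txnrd1, the cytosolic selenoprotein reductase, had 198, 188 and 196 CPM, and its mitochondrial counterpart Txnrd2 had 15.01, 13.03 and 15.2 CPM. Glutaredoxins reduce glutathione-bound proteins and help build iron-sulfur clusters. Glrx3, a cytosolic iron-sulfur glutaredoxin, had 175 CPM in cKO 1, 179 in cKO 2 and 156 in floxed. Its ratios of 1.12 (95% interval 1.07 to 1.18) and 1.15 (1.09 to 1.21) were beyond counting error. Glrx2, Glrx5 and Glrx had log2 folds between -0.12 and 0.13 in both libraries.

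Genes of glutathione synthesis and reduction showed no difference past the fold in either library. Gclc, the catalytic subunit of glutamate-cysteine ligase, which sets the rate of glutathione synthesis, had 29.6 CPM in cKO 1, 27.1 in cKO 2 and 29.9 in floxed. Its modifier subunit gene Gclm had 35.8, 31.6 and 31.1 CPM. Glutathione synthetase (Gss) and glutathione reductase (Gsr) had log2 folds between -0.13 and 0.15. The median log2 fold over these 4 genes was 0.07 for cKO 1, against 0.03 for cKO 2.

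Nfe2l2 and the classical NRF2 targets Hmox1 and Nqo1 separated the libraries labelled cKO from each other. Nfe2l2 had 14.1 CPM in cKO 1, 8.29 in cKO 2 and 11.9 in floxed. Hmox1, the inducible heme oxygenase, had 13.99, 5.81 and 9.19 CPM. Nqo1, a quinone reductase, had 51, 11 and 42 counts, which are 2.61, 0.592 and 2.35 CPM. All of them were highest in cKO 1 and lowest in cKO 2, and floxed lay between. The ratios of cKO 2 to floxed were 0.694 (95% interval 0.561 to 0.858) for Nfe2l2, 0.632 (0.491 to 0.811) for Hmox1 and 0.251 (0.117 to 0.497) for Nqo1. In cKO 1, Hmox1 was higher, with a ratio of 1.52 and an interval wholly above 1, and the intervals of Nfe2l2 (0.987 to 1.42) and Nqo1 (0.723 to 1.71) held 1. Their edgeR log2 folds were -0.09 (SE 0.37) for Nfe2l2, 0.11 (SE 0.50) for Hmox1 and -0.55 (SE 0.81) for Nqo1, each with an adjusted p of 0.9999. Of the 9 members with the antioxidant core in a window, only Nfe2l2 was past the fold between the cKO libraries, as lower in cKO 2. Over all genes tested, 15.9% were lower and 5.63% higher. Of 24 tested NRF2 targets outside the members, 5 were lower past the fold in cKO 2 than in cKO 1 and 2 higher. Srxn1, which has the core, was lowest in cKO 1, with 10.97 CPM there, 12.7 in cKO 2 and 14.2 in floxed. Gclc was not past the fold between the cKO libraries either, and the part of NRF2 in these values was not tested. Keap1, whose product marks NRF2 for degradation, had 45.1, 49.5 and 49.9 CPM, and Hmox2, the constitutive heme oxygenase, had 47.9, 49.5 and 49.9 CPM. The antisense gene Cdip1 covers 40.2% of the Hmox2 exon bases, so the level of Hmox2 is uncertain. For Keap1, the antisense gene Gm16754 covers 10.9% of the exon bases. It was itself counted at 1.59 CPM in cKO 1, 1.13 in cKO 2 and 1.29 in floxed.

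Between the libraries labelled cKO, without floxed, 7 members were lower past the fold in cKO 2 than in cKO 1 (15.9% of all genes tested) and 1 was higher (5.63%). The lower ones were Nqo1 (ratio 0.227), Sod3 (0.3097), Gsta4 (0.331), Hmox1 (0.416), Nfe2l2 (0.586), Gpx8 (0.696) and Gstm1 (0.768), and Mgst3 (1.26) was higher. The share of lower members is close to that of all genes. Of the 37 members of at least 10 CPM, 4 were lower (9.73% of such genes) and 1 higher (5.58%). Summed markers of meninges, endothelium, pericytes and macrophages had the same order as Nqo1, Sod3, Hmox1 and Nfe2l2, highest in cKO 1 and lowest in cKO 2. The order was not particular to these members. Gsta4, Gstm1, Prdx1, Prdx4, Gpx7, Sod2, Txnrd1, Glrx and Msrb2 had it too, most of them with small differences. Its share among all genes was not counted. Beside the meningeal markers, of which Cdh1 had 0 counts in cKO 2, endothelial markers summed to 563 CPM in cKO 1, 308 in cKO 2 and 469 in floxed, and 15 of 18 were lower in cKO 2 than in floxed past the fold. Microglia and macrophage markers summed to 201 CPM in cKO 1, 64.5 in cKO 2 and 151 in floxed, with 12 of 15 lower in cKO 2 and Cd163 at 0 counts there. Pericyte and smooth muscle markers summed to 352, 164 and 289.9 CPM, with 8 of 11 tested lower in cKO 2. Tagln had 0 counts there, but only 3 in cKO 1 and 6 in floxed. Higd1b went the other way, with 1.896 CPM in cKO 1, 3.23 in cKO 2 and 2.58 in floxed. Choroid plexus markers were also lowest in cKO 2, with sums of 1130.4, 343 and 1136 CPM and 10 of 10 tested lower in cKO 2. The sums were mostly Ttr, with 973 CPM in cKO 1, 295 in cKO 2 and 996 in floxed. Of the 10 tested, 7 were above floxed and 3 below in cKO 1. The part of these cells in the redox genes was not tested.

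**Figure D3:**
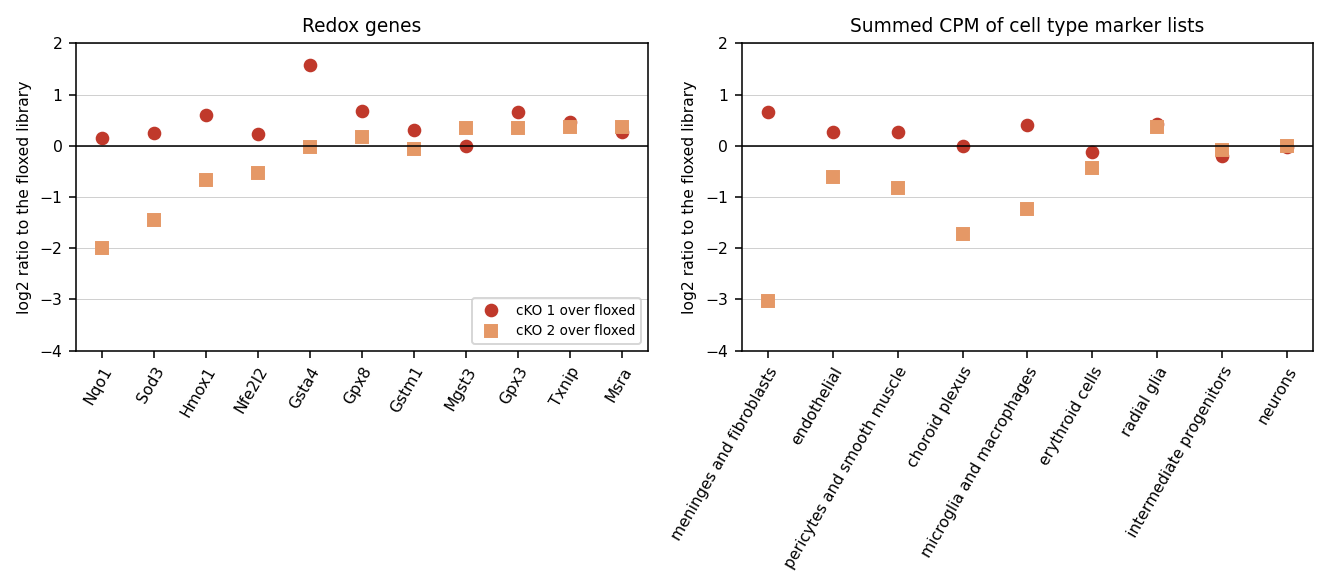
Log2 ratio to the floxed library of selected redox genes (left) and of the summed CPM of 9 marker lists (right), with circles for cKO 1 and squares for cKO 2. Nqo1, Sod3, Hmox1 and Nfe2l2 fall below 0 in cKO 2 and above 0 in cKO 1, as do meningeal, endothelial, pericyte and macrophage sums, while the neuron sums lie near 0 in both. Gsta4 and Gstm1 also lie above 0 in cKO 1 and just below 0 in cKO 2, at -0.02 and -0.07.

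Glutathione S-transferases attach glutathione to electrophiles, and the microsomal forms also act on lipid peroxides. Gsta4, which clears the lipid peroxidation product 4-hydroxynonenal, showed the largest ratio above 1 of any member. Its 406 counts in cKO 1 stood against 128 in cKO 2 and 125 in floxed, which are 20.8, 6.89 and 7.01 CPM. Its ratio for cKO 1 was 2.97 (95% interval 2.42 to 3.66), and in cKO 2 it was 0.983 (0.762 to 1.27). The cKO libraries thus differed from each other as much as cKO 1 did from floxed, and edgeR gave a log2 fold of 0.98 with an SE of 0.59 (unadjusted p = 0.136, adjusted p = 0.9999). In the authors' deposited tables, Gsta4 was the only member marked significant for cKO 1, where 2.35% of all listed genes were. Sod3 and Nqo1 were the only ones for cKO 2 (6.72%). The deposited log2 folds of these marked members were 1.57, -1.44 and -1.99. The mark did not follow the deposited adjusted p alone. Txnip in cKO 1 (log2 fold 0.48) and Prdx2 in cKO 2 (0.26) were unmarked, with adjusted p under 0.05. The test behind these values is not named. Mgst3, a microsomal transferase, had 47.6 CPM in cKO 1, 60.1 in cKO 2 and 47.5 in floxed, past the fold in cKO 2 alone (ratio 1.27, 1.16 to 1.38).

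Mgst1, a microsomal form, was counted 132 times in cKO 1, against 105 in cKO 2 and 81 in floxed, and was past the fold in cKO 1 (ratio 1.49, 95% interval 1.12 to 1.99). In cKO 2 the interval (0.923 to 1.68) held 1. Gstm1 had 34.7 CPM in cKO 1, 26.7 in cKO 2 and 28.03 in floxed, and Gstm5 had 45.4, 49.4 and 43.3 CPM. The Gstm genes form a cluster of similar sequences, so reads may be shared among them. The antisense gene 4933431E20Rik covers 13.9% of the Gstm5 exon bases. It was itself counted at 16.8 CPM in cKO 1, 19.6 in cKO 2 and 16.98 in floxed. Gstp1 had 95.1, 96.1 and 103 CPM.

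Methionine sulfoxide reductases repair oxidised methionine in proteins. Msra had 56.01 CPM in cKO 1, 59.96 in cKO 2 and 46.5 in floxed, so both cKO libraries lay above floxed. The ratio was 1.21 (95% interval 1.1002 to 1.32) in cKO 1, short of the threshold, and 1.29 (1.18 to 1.41) in cKO 2. Its edgeR log2 fold was 0.32 (SE 0.15, unadjusted p = 0.06503, adjusted p = 0.9999), the second smallest p among the members. Msrb2, the mitochondrial reductase for the other stereoisomer, had 5.18, 4.63 and 5.16 CPM.

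The surrounding pathway genes were taken from lists drawn up by function, and 0 genes of these lists passed edgeR's adjusted threshold. Of NRF2 targets outside the members, 24 were tested, with median log2 folds of 0.09 in cKO 1 and -0.09 in cKO 2. In cKO 2, 3 of them were higher past the fold and 7 lower, and in cKO 1 the counts were 1 and 0. Over all genes tested, 5.61% were higher and 14.0% lower in cKO 2, and 8.06% and 4.78% in cKO 1, and the counts of each list that follows stand beside the same shares. Some genes are in several lists, so the counts are not independent. Among them, Gstm2 and Gstm4 were lower past the fold in cKO 2 and Taldo1 higher. Of 11 regulators of NRF2, 1 was higher and 1 lower in cKO 2 and 0 in cKO 1. Of 22 further glutathione enzymes, Gstk1, a transferase of mitochondria and peroxisomes, was past the fold as higher in both libraries, with 7.43 CPM in cKO 1, 6.08 in cKO 2 and 4.32 in floxed. Over these 22, 2 were higher and 2 lower in cKO 1, and 3 and 4 in cKO 2. Among 20 further thioredoxin-fold and methionine sulfoxide reductase genes, 2 were higher and 1 lower in cKO 1, with 2 higher and 4 lower in cKO 2. Among 19 further genes for selenoproteins or for the insertion of selenocysteine, 1 was higher and 2 lower in cKO 1, with 0 higher and 1 lower in cKO 2. Of 7 tested genes for the activation and reception of hepatocyte growth factor, 1 was higher in cKO 1 and 1 lower in cKO 2. Genes that supply NADPH summed to 1622 CPM in cKO 1, 1668 in cKO 2 and 1669 in floxed over 19 genes, of which 2 were higher and 1 lower in cKO 1, and 1 and 2 in cKO 2. Aldh1l2, a mitochondrial folate enzyme that makes NADPH, was lower past the fold in both libraries, with 10.97, 10.3 and 14.2 CPM. Nnt, the mitochondrial transhydrogenase whose gene is partly deleted in the C57BL/6J substrain, was counted 17 times in cKO 1, against 2 in cKO 2 and 5 in floxed. It was chosen after its values were seen.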

How the data were processed

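RNA from cortex was sequenced, and 2 tables pairing a library labelled cKO with the same control library were used. The authors deposited raw counts per gene beside CPM values, a fold (ratio of the CPM values), its log2 and p-values that compare 1 library with 1 library, per the file headers. The sources used here do not name the test behind those p-values. Bowtie2 2.2.3, TopHat2 2.0.12 and HTSeq 0.6.0 with mm9 are named, per the submitters' processing notes. Positions in the tables are those of GRCm38: 38 of 42 members lie at the identical GENCODE M21 position. The TruSeq kit named in the labels does not mark strand. Columns were assigned to groups because their names hold KO or WT, as the sample titles do. The other sample labelled with the control genotype was not analysed here, and the labels do not explain the word Blood in the title of 1 sample of each genotype.

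Library totals were summed over each table. For the test across genes, edgeR 4.0.16 (R 4.3.3) was run on the deposited counts, with a minimum count of 10 in the default filter, library totals as library sizes and Benjamini-Hochberg adjustment over 16658 genes. The lone control library was assumed to vary like the cKO libraries. The SE was the log2 fold over the square root of F. Intervals of ratios are exact (Clopper-Pearson, SciPy 1.17.1) and, without molecular identifiers, cover counting error only. Scripts were tested on simulated data. The simulated counts for edgeR varied less between libraries than these data did, so they do not show the power of this design. TMM, no filter, DESeq2 1.42.0, limma-voom 3.58.1, another fold, intervals alone and other totals were tried. Members, lists and the naming rule (past the fold in both libraries or between the cKO libraries, highest levels per kilobase, p under 0.05, regulators) were chosen with earlier results of these data known. Other members are named to account for all. The shares among genes of at least 10 CPM were added after seeing the data.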

Additional observations from a re-analysis of the deposited data

How the results depend on the processing

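Over all genes, TMM scaling or no expression filter left 0 genes called instead of 1, DESeq2 called 5, and limma-voom called 1. None of these settings called a member. With a 1.5-fold threshold, members past it numbered 4 higher and 0 lower in cKO 1 (all genes: 3.73% and 2.34%), 0 and 3 in cKO 2 (2.37% and 9.66%), and 0 and 5 in cKO 2 against cKO 1 (2.14%, and 1826 of 16658 genes). With the counting interval alone, they numbered 14 higher and 5 lower in cKO 1 (all genes: 17.9% and 16.1%), 14 and 9 in cKO 2 (16.1% and 24.6%), and 8 and 15 in cKO 2 against cKO 1 (2834 of 16658 genes, and 27.4%). With TMM, 2 members were higher in cKO 2 than in cKO 1, as the share of all genes went from 5.63% to 8.07%. Under limma-voom the fitted log2 fold of Hmox1 turned from 0.11 to -0.02. With 1 cKO library left out, no test is possible, since no residual degree of freedom is left. The log2 fold was then 0.37 to 0.48 for Txnip, 0.34 to 0.67 for Gpx3, -0.02 to 1.57 for Gsta4, -0.66 to 0.61 for Hmox1, -0.53 to 0.24 for Nfe2l2, -1.44 to 0.25 for Sod3 and -1.99 to 0.15 for Nqo1. The last 5 differ in sign with the library left out, as do Gstm1 (-0.07 to 0.31) and Prdx2 (-0.02 to 0.26). No paired analysis was possible because the tables hold 1 control library, so the groups share fewer than 2 numbers. Depth limits Nqo1, Sod3 and Hgf most.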

Other observations

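The 19 listed genes that make reactive oxygen summed to 330.4 CPM in cKO 1, 307 in cKO 2 and 314 in floxed. Of 18 tested, 3 were higher past the fold in cKO 1 and 0 lower, and in cKO 2 there were 0 higher and 5 lower (all genes tested: 8.06%, 4.78%, 5.61% and 14.0%). Aox1, lower past the fold in cKO 2, is also counted among the NRF2 targets above.

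The genes named from here on were chosen after their values were seen. Cybb, the catalytic subunit of the phagocyte NADPH oxidase, was counted 21 times in cKO 1, against 5 in cKO 2 and 15 in floxed. Its partner Cyba was counted 204, 107 and 148 times. Phagocytes are known for both genes, and the summed microglia and macrophage markers had the same order (201, 64.5 and 151 CPM), whose part was not tested. Slc7a11, the cystine importer that feeds glutathione synthesis, had 10.9 CPM in cKO 1, 0.861 in cKO 2 and 8.07 in floxed. Selenop, the secreted selenium carrier, had 118, 30.9 and 77.4 CPM. For both, floxed lay between the cKO libraries, as it did for the summed meningeal markers (1064, 83.2 and 677 CPM), whose part was not tested. Met, the receptor of hepatocyte growth factor, had 3.64, 3.66 and 3.03 CPM. Its ligand gene Hgf stood at 0.205 CPM in cKO 1 and 0.168 in floxed, near the limit that a count of 0 allows.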
